A study of Mus musculus with 2 samples.

Results

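Low-contractile fibroblasts of the infarcted mouse heart are cells with abundant fibrillar collagen mRNA and little of the smooth muscle actin programme. They were chosen by their own counts of unique molecular identifiers (UMIs), which number the captured mRNA molecules. A cell of the MI library was taken if at most 25% of its UMIs came from mitochondrially encoded genes, if Col1a1, Col1a2 and Col3a1 together made up at least 2% of its UMIs, and if Acta2 and Tagln together stayed below 0.15%. It also had at most 2 UMIs in each of 3 sums, the cycling genes Mki67, Top2a, Cenpf, Ube2c, Cdc20 and Birc5, the epicardial genes Wt1, Lrrn4 and Cxadr, and the pericyte genes Rgs5, Vtn and Kcnj8. The rule found 1022 cells, 11.9% of the 8555 MI barcodes (exact Clopper-Pearson 95% interval 11.3 to 12.7%), among 14892 barcodes in the series. They were set against 1187 contractile fibroblasts, which met every condition of the rule except that Acta2 and Tagln reached 0.15%, and against 1341 sham fibroblasts, chosen at a collagen share of at least 0.5%, with the same other limits and at most 2 UMIs of the immune and endothelial genes Ptprc, Cd68, Pecam1 and Cdh5. Only 27 sham cells reached the 2% of collagen that the infarct groups had to meet. Both infarct groups came from the MI library, prepared from 1 heart 14 days after the left anterior descending artery was tied off. The sham fibroblasts came from 4 pooled hearts 14 days after the same operation without tightening the suture. All animals were male wild-type C57BL6/J mice of 8 to 10 weeks. The labels name the tissue as heart and give no zone, so a position of these cells in the scar was not measured.

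Fibroblasts of an uninjured heart maintain a loose interstitial matrix. After infarction they divide, switch on smooth muscle actin and other contractile genes as myofibroblasts, and lay down the collagen scar. As a scar matures, part of these cells lose smooth muscle actin and take on matrix genes known from tendon and cartilage, a state described in the mouse heart as the matrifibrocyte. Wnt signalling, complement and small leucine-rich proteoglycans are among the other systems through which fibroblasts shape a scar.

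The MI library held 33275336 UMIs and the sham library 11307405, and 5 barcodes occurred in both, 1 of them in the infarct groups and 2 in the sham fibroblasts. Each group was 1 library, so no difference here had a replicate check and no p-value was computed. The median cell had 4042 UMIs among the low-contractile fibroblasts, 5600 among the contractile fibroblasts and 1505 among the sham fibroblasts. Levels are UMIs per 1000000 UMIs (CPM) over the summed cells of a group, and intervals in parentheses are exact 95% intervals that cover counting error only. Because the cells were chosen on Acta2, Tagln and collagen of these same counts, all contrasts between the groups are descriptions. In such counts, fewer cells that express a gene and less RNA per cell cannot be told apart.

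The low-contractile fibroblasts carried all 10 fibroblast markers checked, with a summed level of 60115 CPM, against 55671 CPM in contractile and 46543 CPM in sham fibroblasts. Most of the infarct sums came from Col1a1, Col1a2 and Col3a1, which the rule used, so the selection shaped the order of the sums. Among the other markers, Dcn and Gsn were higher in sham fibroblasts and Postn was lower there. The collagens used by the rule were at like levels in both infarct groups. Col1a2, a chain of type I collagen, stood at 29573 CPM in low-contractile, 29875 CPM in contractile and 5954 CPM in sham fibroblasts. Col3a1, the chain of type III collagen, stood at 13268 CPM (low-contractile), 10595 CPM (contractile) and 2588 CPM (sham). The low-contractile cells thus kept the collagen level of their contractile neighbours, a pattern that the collagen limit itself set in part.

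The other marker genes given for these cells had higher summed levels than both comparison groups, by least for Fmod over contractile fibroblasts. Comp (chr8:70373558-70382066, plus strand, GRCm38), which encodes a matrix protein of cartilage and tendon that binds collagen, reached 244 CPM (230 to 259) in low-contractile fibroblasts, against 85.6 CPM in contractile and 2.17 CPM in sham fibroblasts. Sfrp1 (chr8:23411502-23449632, plus strand), a secreted Wnt antagonist, reached 2116 CPM in low-contractile, 1177 CPM in contractile and 385 CPM in sham fibroblasts. Fmod (chr1:134037254-134048277, plus strand), a small proteoglycan that regulates collagen fibril growth, reached 140 CPM in low-contractile, 101 CPM in contractile and 0.869 CPM in sham fibroblasts. Per cell, Sfrp1 ranged up to 17286 CPM with a median of 1406 CPM in low-contractile, up to 10427 CPM with a median of 747 CPM in contractile and up to 5467 CPM with a median of 0 CPM in sham fibroblasts. The groups therefore overlapped widely. On the log2 scale the differences of the summed levels from contractile fibroblasts were 1.51 (1.37 to 1.65) for Comp, 0.85 for Sfrp1 and 0.47 for Fmod. The differences from sham fibroblasts were 6.81 for Comp, 2.46 for Sfrp1 and 7.33 for Fmod.

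The share of cells with a detected Comp or Sfrp1 UMI differed in the same direction. Such a share also depends on the level of a gene, so it is not a separate count of expressing cells. After each cell was thinned to 1000 UMIs, 18.6% of low-contractile, 6.56% of contractile and 0.179% of sham fibroblasts had a Comp UMI. Unthinned, the shares were 38.2% of low-contractile, 22.6% of contractile and 0.373% of sham fibroblasts. Thinning left out 32 low-contractile, 28 contractile and 225 sham fibroblasts with fewer UMIs. Lymphocytes of the MI library, 154 cells taken by at least 3 UMIs of lymphocyte genes, should lack Comp and serve as a measure of free RNA. Their share was 0.781% after thinning. For Sfrp1 the thinned shares were 65.5% in low-contractile, 53.5% in contractile and 26.8% in sham fibroblasts, and 7.81% in MI lymphocytes. For Fmod they were 12.7% in low-contractile, 9.58% in contractile and 0.0896% in sham fibroblasts, and 1.56% in MI lymphocytes. Unthinned, 32.6% of low-contractile and 33.5% of contractile fibroblasts had a Fmod UMI, and over the 59 contractile cells with at least 1% of Acta2 and Tagln its log2 ratio was -0.05. Comp was thus found in a minority of the low-contractile cells and Sfrp1 in most.

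The contractile genes that the rule did not use followed Acta2 and Tagln. Acta2, the alpha-actin of smooth muscle, was at 348 CPM in low-contractile, 3068 CPM in contractile and 6.52 CPM in sham fibroblasts, and Tagln, an actin-binding protein of smooth muscle, at 254 CPM (low-contractile), 1702 CPM (contractile) and 4.78 CPM (sham). Of 20 further contractile genes, 20 were lower than in contractile fibroblasts, 13 of them by 2-fold or more, and the median log2 ratio was -1.28. Of all 12342 genes with at least 20 UMIs in this contrast, 1.65% were lower by 2-fold or more and 5.32% higher by 2-fold or more, and the median gene stood at 0.06. Against sham fibroblasts the same 20 genes had a median of 1.58, and 12 were higher by 2-fold or more. Of the 11815 genes tested against sham, 10.0% were higher by 2-fold or more and 17.0% lower by 2-fold or more, and the median was -0.22. The low-contractile cells thus lay between the other groups for most of this list.

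The largest gap was in Cnn1 (chr9:22099216-22109630, plus strand), calponin 1, an inhibitor of smooth muscle myosin, with 5.33 CPM in low-contractile, 126 CPM in contractile and 0 CPM in sham fibroblasts. Actg2, enteric smooth muscle actin, had 11.7 CPM (low-contractile), 180 CPM (contractile) and 0.869 CPM (sham), and Myl9, a myosin regulatory light chain, 111 CPM (low-contractile), 552 CPM (contractile) and 7.82 CPM (sham). The log2 ratios over contractile fibroblasts were -4.56 for Cnn1, -3.94 for Actg2 and -2.32 for Myl9. Tpm2 and Tpm1, tropomyosins, stood at -2.02 and -1.56, Lmod1, an actin filament nucleator, at -2.48, and Myh11, the smooth muscle myosin heavy chain, at -2.54. The ends of the list nearest to no difference were Synpo2 at -0.11 and Mylk, myosin light chain kinase, at -0.41. Ankrd1, a nuclear protein induced by mechanical load, was outside the list and stood at 32.2 CPM in low-contractile, 247 CPM in contractile and 2.61 CPM in sham fibroblasts.

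Contractile genes were also counted in MI lymphocytes, the measure of free RNA. There Acta2 stood at 464 CPM, Cnn1 at 19 CPM and Ankrd1 at 306 CPM, each above its level in low-contractile fibroblasts, while Myl9 stood at 66.4 CPM, below it. The lymphocyte sums rested on few cells, since the median lymphocyte had 0 UMIs of 7 contractile markers and the highest had 109. After thinning, Acta2 was found in 25.5% of low-contractile, 87.8% of contractile and 0.896% of sham fibroblasts, and in 12.5% of MI lymphocytes. Cnn1 was found in 0.505% of low-contractile, 8.63% of contractile and 0% of sham fibroblasts, and in 0% of MI lymphocytes. The share of low-contractile cells with Acta2 thus exceeded that of lymphocytes at a lower summed level.

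Serum response factor, which drives contractile genes in smooth muscle, binds a short palindromic motif known as the CArG box. In RefSeq promoters on GRCm38.p6, covering the 250 bases before each start, this motif was searched on both strands, which read alike. It lay in the windows of 5 of 19 genes from the contractile list and the rule (26.3%), against 439 of 27025 genes in all (1.62%). Tagln, Actg2 and Myh11 had no window in the promoter set and were not searched. The 5 windows are shown because they hold the motif. All 20 genes of the list, including those not searched, were lower in low-contractile than in contractile fibroblasts, so the direction does not set these 5 apart. The genes shown had log2 ratios of -1.27 for Cnn2, -2.32 for Myl9, -0.90 for Myl6 and -1.61 for Acta1, with 74.4 CPM of Vcl in low-contractile and 148 CPM in contractile fibroblasts. Capitals mark the CArG box, and each sequence runs 5′ to 3′ on the strand of its gene. They come from chr10:79988514-79988583 (plus), chr2:156775273-156775342 (plus), chr10:128493020-128493089 (minus), chr8:123894809-123894878 (minus) and chr14:20929148-20929210 (plus), in the order printed. That of Myl6 precedes 1 of its 2 listed starts.
Cnn2: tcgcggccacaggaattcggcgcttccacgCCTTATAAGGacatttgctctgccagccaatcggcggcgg
Myl9: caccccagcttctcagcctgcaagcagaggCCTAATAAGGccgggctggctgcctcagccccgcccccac
Myl6: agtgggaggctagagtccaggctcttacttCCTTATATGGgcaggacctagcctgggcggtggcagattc
Acta1: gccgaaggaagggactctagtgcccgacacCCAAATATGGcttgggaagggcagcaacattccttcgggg
Vcl: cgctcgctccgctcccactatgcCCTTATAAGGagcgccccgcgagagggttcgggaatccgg
A match describes the letters only. The motif was not in the windows of Acta2 and Cnn1, which says nothing of sites elsewhere.

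**Figure D1:**
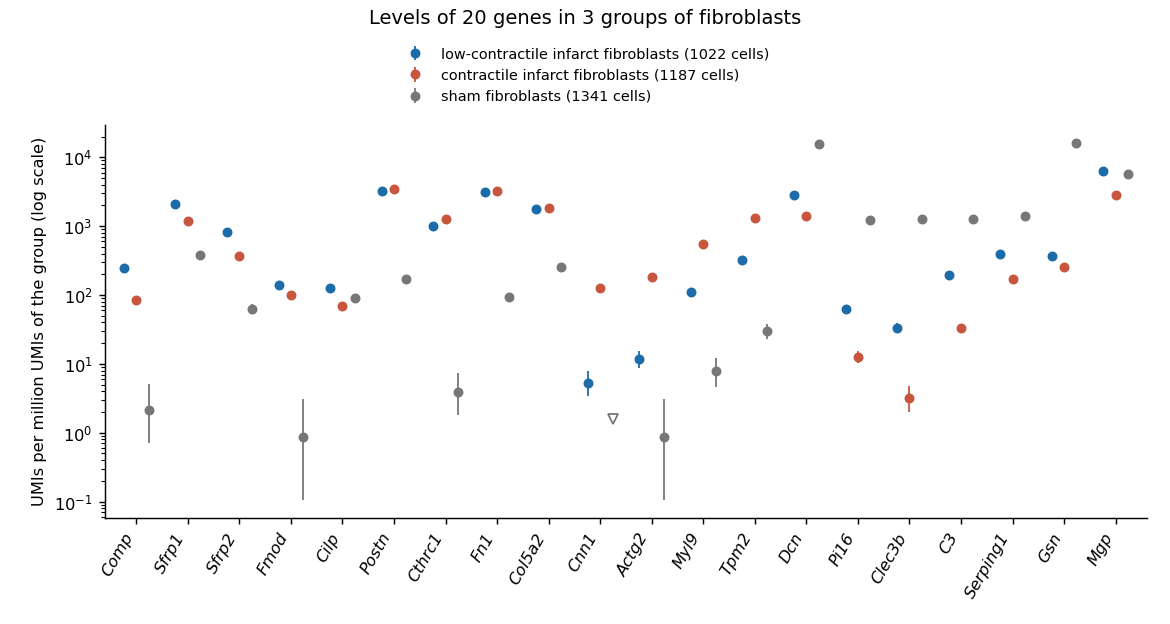
Level of 20 genes, in CPM on a log axis, in low-contractile, contractile and sham fibroblasts, with exact Poisson 95% intervals and a triangle at the upper limit where a level was 0. Comp stands at 244 CPM (low-contractile), 85.6 CPM (contractile) and 2.17 CPM (sham) and Cnn1 at 5.33 CPM (low-contractile), 126 CPM (contractile) and 0 CPM (sham).

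Secreted Wnt antagonists were mostly higher than in both comparison groups. Against contractile fibroblasts the 6 measured genes had a median log2 ratio of 0.86, and 2 were higher by 2-fold or more. Against sham fibroblasts 6 of 6 were higher by 2-fold or more, and the median was 2.50. Sfrp2 stood at 815 CPM in low-contractile, 363 CPM in contractile and 63.0 CPM in sham fibroblasts. Frzb, which also binds Wnt ligands, stood at 124 CPM (low-contractile), 67.7 CPM (contractile) and 39.1 CPM (sham), and Dkk3, a member of the Dickkopf family, at 112 CPM (low-contractile), 77.4 CPM (contractile) and 19.1 CPM (sham). Dkk2 ran the other way within the infarct, with 19.2 CPM in low-contractile, 33.2 CPM in contractile and 1.74 CPM in sham fibroblasts. Sfrp4 had 4.05 CPM in low-contractile and 0.396 CPM in contractile fibroblasts, from few UMIs. Dkk1, Notum and Sostdc1 had no UMI in any group, where 3 counts would be 0.640 CPM in low-contractile fibroblasts.

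Over all low-contractile cells, the tendon- and cartilage-type matrix genes were mostly higher than in contractile fibroblasts, though fewer of them reached 2-fold. This did not hold in each sub-cluster described below. Of 10 measured genes 9 were higher and 3 were at least 2-fold higher, Comp, Prelp and Angptl7, with a median log2 ratio of 0.85. Prelp, a proteoglycan that anchors basement membranes, had 103 CPM in low-contractile, 32.4 CPM in contractile and 326 CPM in sham fibroblasts. Angptl7, a secreted angiopoietin-like protein, had 45.6 CPM (low-contractile), 9.63 CPM (contractile) and 126 CPM (sham). Both were thus lower than in sham fibroblasts. The transcript 1500015O10Rik had 687 CPM in low-contractile, 356 CPM in contractile and 0.434 CPM in sham fibroblasts. Cilp, a cartilage intermediate layer protein, had 125 CPM (low-contractile), 70.0 CPM (contractile) and 90.8 CPM (sham), and Thbs4, a thrombospondin of tendon and muscle, 26.0 CPM (low-contractile), 31.0 CPM (contractile) and 14.8 CPM (sham). Chad and Cilp2, which are matrifibrocyte markers in the mouse, had 1 and 2 UMIs in low-contractile fibroblasts and the same numbers in contractile fibroblasts. A difference in these genes was not detectable at this depth.

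Genes of tendon and cartilage cells showed no common direction between the infarct groups. The median log2 ratio of 9 genes was 0.06 against contractile fibroblasts, with 5 higher and 4 lower. Against sham fibroblasts the median of 7 genes was 5.02, with a wide interval of its middle gene (2.49 to 10.3). The summed list was close, at 266 CPM in low-contractile and 236 CPM in sham fibroblasts. The median over sham was -0.14 when the cells were chosen again after thinning and -0.61 against the 27 sham cells with 2% of collagen. Genes with too few UMIs drop out in such settings, so these medians need not cover the same 7 genes. A reversal of the list as a whole was not shown. Scx, the tendon transcription factor scleraxis, had 17.7 CPM in low-contractile, 33.6 CPM in contractile and 0.434 CPM in sham fibroblasts, and Tnmd, tenomodulin, had 14.1 CPM (low-contractile), 22.3 CPM (contractile) and 0.434 CPM (sham). Sox9, a cartilage transcription factor, had 158 CPM (low-contractile), 146 CPM (contractile) and 220 CPM (sham). Acan, aggrecan, had 19.6 CPM in low-contractile and 25.5 CPM in contractile fibroblasts. Matn3, matrilin 3 of the cartilage matrix, had 8.53 CPM (low-contractile), 3.03 CPM (contractile) and 0 CPM (sham), and its log2 ratio of 1.49 over contractile fibroblasts was the only one of the 9 at 2-fold or more. Scx, Tnmd and Acan thus lay below contractile fibroblasts and Matn3 above them.

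Injury matrix genes lay at like levels in both infarct groups. Against contractile fibroblasts the 15 genes had a median log2 ratio of -0.08 and 1 was at least 2-fold lower. Against sham fibroblasts the median was 4.14 and 13 were higher by 2-fold or more. Postn, periostin, a matricellular protein of healing tissue, had 3278 CPM in low-contractile, 3502 CPM in contractile and 171 CPM in sham fibroblasts. Fn1, fibronectin, had 3143 CPM (low-contractile), 3228 CPM (contractile) and 95.1 CPM (sham). Sparc, a collagen-binding matricellular protein, had 16834 CPM (low-contractile), 16072 CPM (contractile) and 3977 CPM (sham). Tnc, tenascin C, was among the genes with a lower level, at 187 CPM in low-contractile, 367 CPM in contractile and 6.08 CPM in sham fibroblasts. Lrrc15, a membrane protein of TGF-beta-driven fibroblasts, had 7.04 CPM (low-contractile), 29.0 CPM (contractile) and 0 CPM (sham).

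Collagen genes outside the rule were also alike within the infarct. The fibrillar collagens had a median log2 ratio of -0.02 and the other interstitial collagens of 0.29 against contractile fibroblasts, with no gene of either list at least 2-fold apart. Col11a1, a chain of a thin fibrillar collagen, had 486 CPM in low-contractile, 678 CPM in contractile and 2.17 CPM in sham fibroblasts. Col14a1, a fibril-associated collagen, had 616 CPM (low-contractile), 401 CPM (contractile) and 143 CPM (sham), and Col12a1, its relative, 202 CPM (low-contractile), 349 CPM (contractile) and 10.4 CPM (sham). The collagen processing enzymes stood at a median of -0.20, with 14 of 20 lower. Lox, which crosslinks collagen, had 1676 CPM (low-contractile), 1699 CPM (contractile) and 44.7 CPM (sham).

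Other matrix groups held single genes with larger differences. Of 12 small leucine-rich proteoglycans 3 were at least 2-fold higher than in contractile fibroblasts, with a median of 0.42. Dcn, decorin, had 2857 CPM in low-contractile, 1391 CPM in contractile and 15530 CPM in sham fibroblasts, so that it lay between them. Of 13 elastic fibre genes 4 were at least 2-fold higher. Fbln1, a fibulin, had 160 CPM in low-contractile, 60.8 CPM in contractile and 808 CPM in sham fibroblasts, and Efemp1, its relative, had 7.89 CPM (low-contractile), 2.11 CPM (contractile) and 155 CPM (sham). Adamts15, a matrix protease, had 29.2 CPM (low-contractile), 4.22 CPM (contractile) and 30.8 CPM (sham). It stood at 175 CPM in the sub-cluster led by Calca and Clu, and its log2 ratio over contractile fibroblasts was 2.79 with all cells, 1.26 without that sub-cluster and 1.07 without the macrophage-led one as well. Timp1, a metalloproteinase inhibitor, had 549 CPM (low-contractile), 918 CPM (contractile) and 43.0 CPM (sham). Mgp, matrix Gla protein, which blocks calcification, had 6431 CPM in low-contractile, 2879 CPM in contractile and 5721 CPM in sham fibroblasts.

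Genes typical of resting fibroblasts were higher than in contractile fibroblasts and far below sham. Of 18 measured homeostatic genes 13 were higher than in contractile fibroblasts by 2-fold or more and 0 were lower by as much, and the median log2 ratio was 1.31. Against sham fibroblasts 19 of 20 were lower by 2-fold or more, and the median was -3.80. Clec3b (chr9:123150946-123157432, plus strand), tetranectin, had 33.1 CPM in low-contractile, 3.17 CPM in contractile and 1269 CPM in sham fibroblasts. Pi16, a peptidase inhibitor of adventitial fibroblasts, had 61.8 CPM (low-contractile), 12.5 CPM (contractile) and 1245 CPM (sham), and Abca8a, a lipid transporter, had 23.5 CPM (low-contractile), 4.22 CPM (contractile) and 870 CPM (sham). The low-contractile cells thus held a trace of the sham level of these genes, and contractile fibroblasts less. Gsn, gelsolin, had 369 CPM in low-contractile, 259 CPM in contractile and 16168 CPM in sham fibroblasts. Tcf21, a transcription factor of resident cardiac fibroblasts, had 65.0 CPM (low-contractile), 31.7 CPM (contractile) and 219 CPM (sham). Inmt, a methyltransferase, had 0 UMIs in both infarct groups and 547 in sham fibroblasts, which puts the low-contractile cells at a log2 ratio of -8.54 or less.

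All measured complement genes were higher than in contractile fibroblasts. Of 9 genes 9 were higher by 2-fold or more, and the median log2 ratio was 1.73. Against sham fibroblasts 7 of 10 were lower by 2-fold or more and C2 and Cfb were higher by as much, and the median was -1.80. C3 (chr17:57203970-57228136, minus strand), the central complement component, had 196 CPM in low-contractile, 33.6 CPM in contractile and 1260 CPM in sham fibroblasts. Serping1, the C1 inhibitor, had 396 CPM (low-contractile), 170 CPM (contractile) and 1410 CPM (sham). C4b had 24.3 CPM (low-contractile), 4.09 CPM (contractile) and 39.1 CPM (sham). The first components C1ra and C1s, proteases, and the inhibitor Cd55 lay between the groups in the same way. In MI lymphocytes, Cd55 stood at 114 CPM, above its 51.2 CPM in low-contractile fibroblasts. C3 stood at 34.8 CPM in those lymphocytes, near its contractile level. Without the sub-cluster led by Calca and Clu the median log2 ratio over contractile fibroblasts was 1.22, and C4b stood at 1.27 against 2.57 with all cells. Without that and the macrophage-led sub-cluster the median was 1.14 and C4b stood at 1.08. Cfb, at 3.73 over all contractile fibroblasts, was given a value of 0.37 over the 59 of them with at least 1% of Acta2 and Tagln. A gene without a UMI in so small a group is set to 3 counts, which makes the value a lower bound. Whether Cfb reached 2-fold there was therefore not settled.

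Chemokines, immediate early genes and interferon response genes leaned the same way, with smaller differences. The median log2 ratio over contractile fibroblasts was 0.90 for 14 chemokines and cytokines, of which 5 were at least 2-fold higher. It was 0.55 for 13 immediate early genes, of which 13 were higher and only Atf3, a stress-induced transcription factor, by at least 2-fold. It was 0.47 for 11 interferon response genes. Cxcl1, a neutrophil attractant, had 99.8 CPM in low-contractile, 40.1 CPM in contractile and 248 CPM in sham fibroblasts. Atf3 had 37.7 CPM (low-contractile), 8.04 CPM (contractile) and 14.8 CPM (sham). Within the low-contractile cells the lists were highest in different sub-clusters. The immediate early genes summed to 11565 CPM in the one led by Calca and Clu, and the interferon response genes to 5190 CPM in the one led by Cxcl10, against 513 CPM in that led by Calca and Clu. The chemokines and cytokines summed to 1878 CPM in the sub-cluster led by Calca and Clu and to 2181 CPM in that led by Cxcl10. No alternative left out the cells led by Cxcl10.

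Over contractile fibroblasts the growth factor lists had medians above 0, while the endoplasmic reticulum, glycolysis and cell cycle lists had medians below it. TGF-beta genes had a median of 0.14 over contractile fibroblasts. Inhba, an activin subunit, was 1 of them and had 82.3 CPM in low-contractile, 183 CPM in contractile and 40.8 CPM in sham fibroblasts. Insulin-like growth factor genes had a median of 0.42, in which Igfbp4, a binding protein, had 611 CPM (low-contractile), 245 CPM (contractile) and 1062 CPM (sham). Endoplasmic reticulum genes stood at -0.36 and were lower in 11 of 12 cases. Glycolysis genes stood at -0.29, with 9 of 13 lower, and cell cycle genes outside the rule at -0.54, with 12 of 13 lower. Transcription factors stood at 0.12. The last held Runx1, a regulator of injury responses, with 153 CPM in low-contractile, 169 CPM in contractile and 7.82 CPM in sham fibroblasts.

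**Figure D2:**
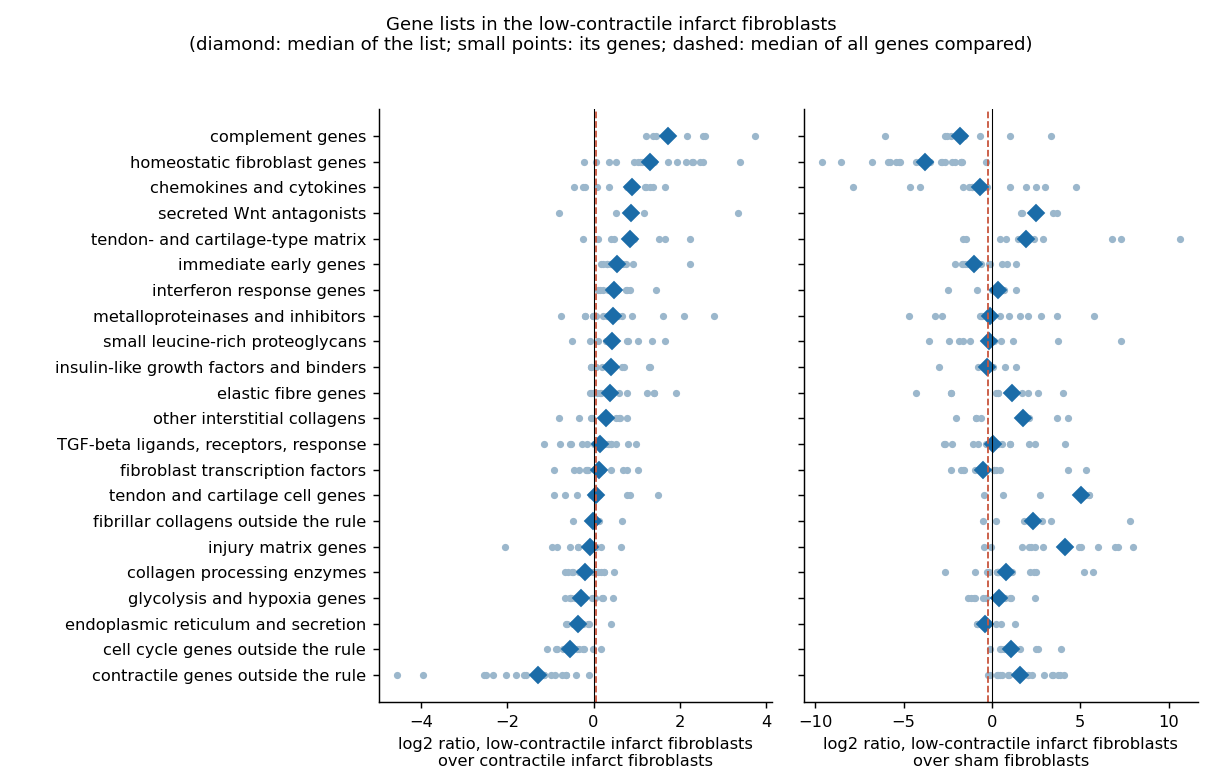
Log2 ratio of low-contractile over contractile fibroblasts and over sham fibroblasts, with 1 point per gene and the list median marked for each gene list. Contractile genes have a median of -1.28 over contractile and 1.58 over sham fibroblasts, and homeostatic genes of 1.31 over contractile and -3.80 over sham fibroblasts.

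All genes were also ranked by the interval bound nearest to 0. Beyond those named above, the genes highest over contractile fibroblasts included Fmo2, a monooxygenase, with 86.4 CPM in low-contractile, 19 CPM in contractile and 507 CPM in sham fibroblasts, Apoe, an apolipoprotein, with 992 CPM (low-contractile), 273 CPM (contractile) and 1916 CPM (sham), and Serpina3n, a serine protease inhibitor, with 108 CPM (low-contractile), 29.4 CPM (contractile) and 116 CPM (sham). Apoe stood at 3122 CPM in MI lymphocytes, above its level in the low-contractile cells. The highest over sham included H19, an imprinted noncoding RNA, with 468 CPM (low-contractile), 336 CPM (contractile) and 0.869 CPM (sham), and Cthrc1, a secreted protein of collagen-producing cells, with 999 CPM (low-contractile), 1282 CPM (contractile) and 3.91 CPM (sham). Wisp1, a matricellular protein, had 162 CPM (low-contractile), 237 CPM (contractile) and 0 CPM (sham), at least 6.95 log2 units above sham. Ddah1, an enzyme of nitric oxide metabolism, had 304 CPM (low-contractile), 393 CPM (contractile) and 2.17 CPM (sham). Spp1, osteopontin, had 84.5 CPM in low-contractile fibroblasts, against 319 CPM in MI lymphocytes, so this level was not above that of the lymphocytes. The lowest against sham fibroblasts included Tnxb, tenascin X, at -6.79, and Hlf, a circadian transcription factor, at -6.29.

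The contractile limit cut a continuous range. Of the 2209 MI cells that met the rest of the rule, 46.3% (44.2 to 48.4) fell below it. The number of cells was 228 in the step from 0.10 to 0.15% of Acta2 and Tagln and 176 in the next from 0.15 to 0.20%. The cells just inside and just outside had 180 and 150 CPM of Comp, 1972 and 1861 CPM of Sfrp1, 2087 and 2007 CPM of Dcn, and 7.77 and 25.5 CPM of Cnn1. The values on both sides thus lay close except for the contractile gene. The collagen limit had 60 cells just inside and 48 just outside, with 131 and 140 CPM of Comp, 2878 and 4182 CPM of Dcn, and 683 and 795 CPM of the macrophage gene Lyz2. Lyz2 stood at 254 CPM over all low-contractile fibroblasts, so the cells on both sides of this limit carried more of it.

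Across 7 bins of the Acta2 and Tagln share, from 0 through to between 1.2 and 2.4%, some genes and lists changed step by step and others did not. Dcn stood lower in each bin, at 4324, 2974, 2083, 1736, 1343, 1038 and 933 CPM. C3 stood at 435, 196, 93.3, 50.1, 30.4, 17.1 and 20.2 CPM. Cnn1 went the other way, at 2.63, 3.71, 8.48, 30.1, 89.8, 258 and 578 CPM. Sfrp1 was level within the first 3 bins at 2026, 2201 and 2052 CPM and lower in each later one, at 1593, 1158, 708 and 465 CPM. Comp stood at 259, 277, 198, 134, 65.9, 58.5 and 12.1 CPM. Cnn1 thus ran opposite to Dcn, C3 and Comp, while Fmod had no such order and lay between 82.6 and 150 CPM. Postn stayed between 3124 and 3601 CPM throughout. The summed tendon and cartilage cell genes, at 250, 240, 305, 309, 262, 258 and 190 CPM, had no steady order either, nor did the TGF-beta genes, at 2254, 2335, 2361, 2221, 2158, 2444 and 2735 CPM. The summed complement genes stood at 2011, 1211, 750, 525, 384, 254 and 242 CPM, and after thinning at 2022, 1214, 815, 591, 435, 246 and 226 CPM. The bins held 248, 420, 354, 453, 452, 251 and 31 cells, with median UMIs that grew along them to 7602 in the last from 2727.5 in the first.

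Depth moved with membership. The low-contractile share was 53.8% (47.9 to 59.6) in cells under 2000 UMIs, 59.2% from 2000 to 4000, 46.1% from 4000 to 8000 and 24.5% (20.6 to 28.8) in cells of 8000 or more. With each cell thinned to 1000 UMIs, the summed homeostatic genes stood at 3472, 2557, 2015, 1686, 1438, 1127 and 1065 CPM along the bins. The contractile genes outside the rule then stood at 4389, 5333, 7138, 8903, 11696, 17078 and 26742 CPM, and the Wnt antagonists at 3153, 3438, 2868, 2314, 1882, 1164 and 903 CPM. The bins themselves were set on the full counts of each cell, and thinning leaves the expected CPM of a cell unchanged. These thinned sums therefore cannot show whether depth shaped the order along the bins.

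**Figure D3:**
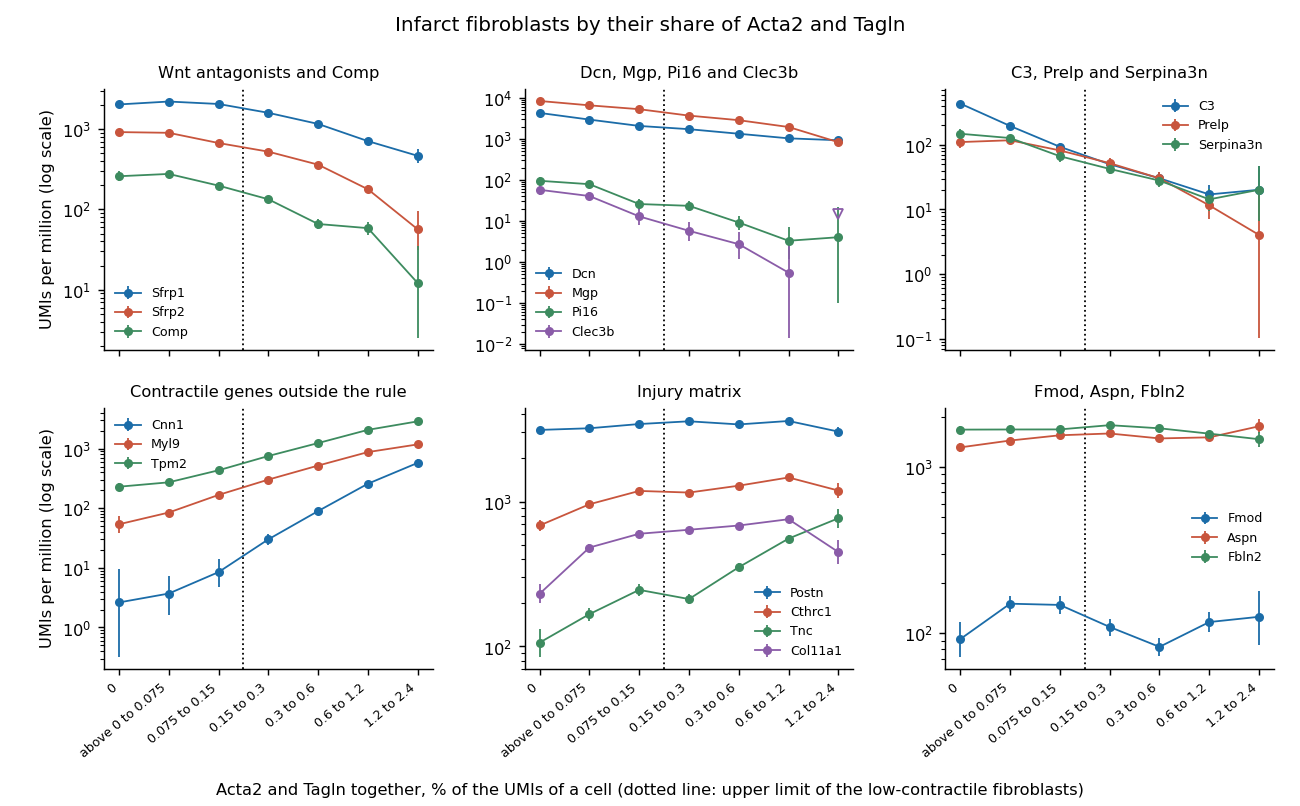
Level of 6 genes or gene groups, in CPM with exact Poisson 95% intervals, against 7 bins of the Acta2 and Tagln share of MI fibroblasts, with a dotted line at the 0.15% limit. Cnn1 climbs to 578 CPM in the last bin, while C3 stands at 435 CPM in the first.

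Within the low-contractile cells, clustering gave 6 sub-clusters, which are described by their leading genes, since those genes defined them. The first held 388 cells (38.0%) and led with Ptn, a heparin-binding growth factor, H19 and the Wnt antagonists. Ptn stood at 3914 CPM, Sfrp1 at 3305 CPM and Sfrp2 at 1286 CPM there. The next held 205 cells (20.1%) and led with Col2a1, the cartilage collagen, Sparcl1, Angptl7 and the basement membrane collagens Col4a1 and Col4a2. Comp stood at 567 CPM and Fmod at 245 CPM in it, with Mgp at 11197 CPM and Postn at 4565 CPM. Col2a1 was found in 12.7% of these cells and Comp in 68.8%.

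A further 202 cells (19.8%) led with Tnc, S100a4, Nes and Inhba. Their Acta2 stood at 542 CPM and their Comp at 35.2 CPM, the highest Acta2 level among the 6 sub-clusters. A set of 129 cells (12.6%) led with Calca, Enpp2, Clu, Tmem100 and Wt1. In it Postn stood at 590 CPM, Comp at 9.22 CPM, Dcn at 6471 CPM and C3 at 706 CPM, with Clu, clusterin, at 1512 CPM. Wt1, an epicardial transcription factor, stood at 97.8 CPM, although the rule allowed at most 2 such UMIs per cell, and 3 of 8 epicardial markers were detected in at least 10% of the cells. The summed tendon- and cartilage-type matrix genes stood at 1128 CPM in the Tnc-led and 657 CPM in the Clu-led cells, against 1269 CPM in contractile fibroblasts. Comp and Sfrp1, the latter at 774 and 1081 CPM, were also below their contractile levels in both. The other sub-clusters lay above contractile fibroblasts in each of these.

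The last sub-clusters were small. One of 61 cells (5.97%) led with the macrophage genes Lyz1, C1qa and Lyz2, and 40 of the 43 doublets called among the low-contractile fibroblasts lay in it. Apoe stood at 8550 CPM there. The other, of 37 cells (3.62%), led with Cxcl10, Rsad2, Iigp1 and Ifit3, interferon-induced genes, with Ifit3 at 832 CPM.

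**Figure D4:**
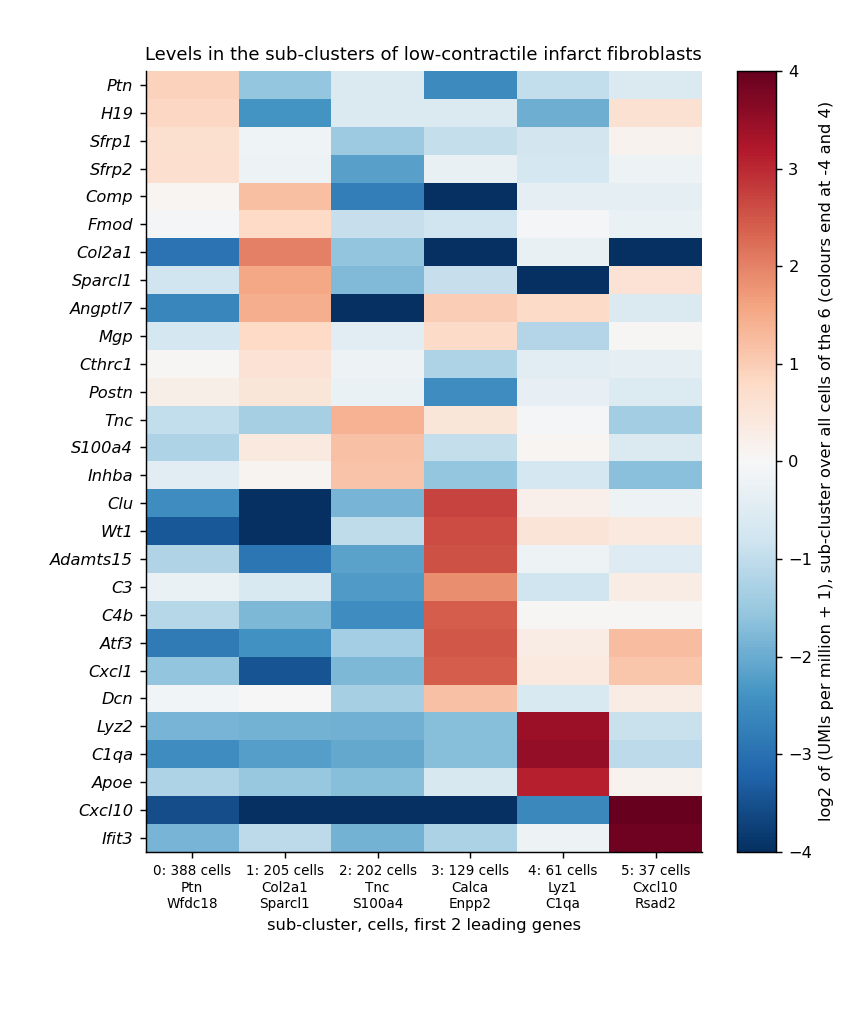
Heat map of the log2 ratio of each sub-cluster over all low-contractile fibroblasts, computed on CPM plus 1, for 28 genes in 6 sub-clusters. Comp stands at 567 CPM in the sub-cluster led by Col2a1 and at 9.22 CPM in the one led by Calca and Clu.

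Markers of other cell types moved with part of the results. The 9 macrophage or monocyte markers in the tables summed to 532 CPM in low-contractile, 191 CPM in contractile and 393 CPM in sham fibroblasts, and 100 low-contractile cells held at least 3 such UMIs. Sham fibroblasts alone were limited to 2 UMIs of Ptprc, Cd68, Pecam1 and Cdh5. Cd68 is among the macrophage markers, so the sham sum was limited in a way the infarct sums were not. Epicardial markers summed to 47.1 CPM (low-contractile), 26.1 CPM (contractile) and 15.2 CPM (sham), and mural markers to 80.0 CPM (low-contractile), 127 CPM (contractile) and 66.9 CPM (sham), with Vtn at 0 in both infarct groups. These sums hold the epicardial and pericyte genes that the selection capped in every group, so it limited them. Without the Clu-led sub-cluster, leaving 893 cells, the median log2 ratio over contractile fibroblasts was 1.22 for complement genes, 1.18 for homeostatic genes, 0.09 for immediate early genes and 0.55 for chemokines. Without the macrophage-led sub-cluster, leaving 961 cells, complement genes stood at 1.76, homeostatic genes at 1.33, immediate early genes at 0.54 and chemokines at 0.85, and Apoe at 0.68 against 1.86 with all cells. Without both, leaving 832 cells, Comp stood at 1.72, C3 at 1.96, Clec3b at 3.25, Atf3 at 0.52 and Cxcl1 at -0.20, and the contractile genes at a median of -1.27. Without the Clu-led cells the immediate early median lay near 0 and, without both, Cxcl1 below it, while the complement, homeostatic and contractile medians kept their direction.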

How the data were processed

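Drop-seq was run on 1 MI library (1 heart) and 1 sham library (4 pooled hearts), with 12 PCR cycles, per the labels' protocols. Those protocols also mention paraformaldehyde fixation and an aortic constriction gradient, without saying how they apply. The authors deposited raw UMI counts, with genes in rows and barcodes in columns. The submitters' processing notes name mm10 and Seurat; the sources used here do not give the aligner, counting program, strand setting or annotation. Each barcode had at least 500 genes, so the tables were filtered before deposit. The low-contractile cells and the gene lists were chosen with earlier results of these data known, and the promoter motif after the values were seen.

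Counts were summed over the cells of a group and given as CPM with exact Poisson intervals. Log2 ratios have exact conditional binomial intervals, and genes with at least 20 UMIs over both groups entered. A gene with 0 UMIs was set to 3 counts over the group, which makes its ratio a bound. Each condition was 1 library, so conditions were not tested. Named genes had 50 UMIs or more and were seen in 5% or more of the cells of 1 group; they were the 12 highest and 12 lowest per comparison by the bound nearest 0, with 3 per list and the given markers. Doublets called with scrublet in scanpy 1.11.5 were counted and kept. Sub-clusters used 1000 variable genes and leidenalg 0.10.2. Statistics used scipy 1.17.1, scikit-learn 1.9.0, numpy 2.4.6 and anndata 0.12.19 under Python 3.11.15, and figures matplotlib 3.10.9. Near-identical genes, such as the actins, Lyz1 and Lyz2, share sequence, and the sources used here do not say how such reads were counted. Some further list members and sub-cluster genes were named after their values were seen. Gene coordinates are those of the GENCODE annotation on GRCm38. The log2 ratio step, for low-contractile over contractile fibroblasts, was tested on simulated Poisson counts. The other steps were not tested on simulated data.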

Additional observations from a re-analysis of the deposited data

How the results depend on the processing

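The low-contractile group held 668 cells with an Acta2 and Tagln limit of 0.075% and 1475 with 0.3%. By the 2-fold rule, 657 genes were higher and 204 lower than in contractile fibroblasts, and 1181 higher and 2006 lower than in sham fibroblasts. The alternatives below are against contractile fibroblasts unless sham is named. Choosing the cells again after thinning to 1000 UMIs gave 1308 low-contractile cells, 840 of them among the 1022, and 429 genes higher. Under the 0.075% limit 349 were lower. Taking contractile fibroblasts from 1% of Acta2 and Tagln upward gave 1686 higher and 542 lower. A filter of 100 UMIs gave 233 higher and 69 lower over contractile and 587 higher and 962 lower over sham fibroblasts. A filter of 1 UMI gave 1402 higher and 655 lower over contractile and 3160 lower than sham. The main setting compared 12342 genes with contractile and 11815 with sham fibroblasts. The filters and the choice of cells changed how many genes were compared, so these counts are not shares of the same set. Without the Clu-led and macrophage-led sub-clusters, an alternative chosen after seeing the data, 383 were higher and 314 lower. With sham cells at 2% collagen, 27 cells, 708 genes were higher than sham. Ifi44 over sham turned to -0.39 among cells of at least 3000 UMIs. The median of the tendon and cartilage cell genes over sham was -0.14 with the cells chosen after thinning and -0.61 with sham cells at 2% collagen. It need not cover the same genes there, since those with too few UMIs drop out. Fmod turned to -0.05 over contractile fibroblasts from 1% upward. Cxcl1 over contractile turned to -0.20 without both sub-clusters. Of 15 list medians of 2-fold or more, 15 kept their sign under every alternative run on them except thinning (14 of 15) and sham cells at 2% collagen (11 of 12). Fewer stayed at 2-fold or more, 11 of 15 at 3000 UMIs a cell and 6 of 12 with sham cells at 2% collagen. Smaller medians changed sign more often, and of all 44 list medians 41 kept it without the Clu-led sub-cluster. The cause of these shifts was not tested. Each group was 1 library, so no alternative leaves out a replicate, and depth in sham cells limits what low genes show.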
